A study of Mus musculus with 4 samples.

Results

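Ins1, Ins2 and Iapp are the genes of the main secreted products of the pancreatic beta cell, and they were taken by symbol: 3 of the 32285 genes in the deposited count matrices. Ins1 and Ins2 are the mouse insulin genes, and Iapp encodes amylin (islet amyloid polypeptide). The series profiled dissociated islets of wild type and Malat1-/- mice, both labelled strain C57BL/6, by droplet single-cell RNA sequencing with a 3′ kit, with about 20000 cells suspended per library. Malat1 is an abundant nuclear long non-coding RNA, and TCDD is the dioxin best known as a ligand of the aryl hydrocarbon receptor. The libraries described here are 1 of wild type islets with TCDD and 1 of Malat1-/- islets with TCDD (Malat1-null below). The vehicle (DMSO) libraries of both genotypes were not analysed here. Dose, exposure time, age, sex and the number of mice are not in the labels.

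Mice carry a pair of insulin genes. Ins2 has the intron arrangement of the insulin gene of other mammals, and Ins1 is a rodent copy that arose by retroposition and keeps fewer introns. Insulin is made as preproinsulin, folded and disulphide-bonded in the endoplasmic reticulum, cut by prohormone convertases (Pcsk1, Pcsk2) and carboxypeptidase E (Cpe), and stored with zinc in granules. Amylin is processed by the same convertases, amidated by Pam, and released from the same granules; it slows gastric emptying and reduces food intake. Delta cells of rodents, which make somatostatin, are also known to contain amylin. The insulin and amylin promoters are bound by Pdx1, which recognises TAAT cores, and the insulin promoters by Neurod1 with its E-protein partners, through the motif GCCATCTG.

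On the GRCm38 annotation (GENCODE M21) Ins1 lies on chromosome 19 from 52264297 to 52265476 on the plus strand, with 2 exons. Ins2 lies on chromosome 7 on the minus strand. Its main transcript runs from 142678659 to 142679726 with 3 exons, while the gene model, which holds 9 transcripts, reaches 142743381. Iapp lies on chromosome 6 from 142298423 to 142303961 on the plus strand, with 3 exons, and overlaps Slco1a5 on the opposite strand; whether counting used strand is not given in the sources used here. The coding sequences of Ins1 (327 bases) and Ins2 (333 bases) were identical at 302 of 327 aligned bases (92.4%). Because the assay reads transcript 3′ ends and every Ins1 to Ins2 ratio here depends on telling the genes apart there, the last 120 coding bases, stop codon included, are shown in transcript direction, with the 13 bases that differ between the genes in capitals.

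Ins1 (chr19:52264831-52264950, plus strand): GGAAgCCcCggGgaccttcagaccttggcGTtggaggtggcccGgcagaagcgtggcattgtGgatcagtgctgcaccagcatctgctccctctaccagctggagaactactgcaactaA
Ins2 (chr7:142678713-142678832, minus strand): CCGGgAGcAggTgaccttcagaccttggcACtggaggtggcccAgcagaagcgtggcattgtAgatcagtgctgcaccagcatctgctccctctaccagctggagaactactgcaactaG

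The longest run shared exactly by the annotated transcripts was 56 bases, in the coding sequence, and the longest shared by the annotated 3′ untranslated regions was 22 bases. How reads within the shared run were assigned is not given in the sources used here, so the absolute Ins1 share carries an assignment uncertainty that both libraries have in common.

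Upstream sequence is shown for the promoter motifs named above, and no regulation is read from it. RefSeq windows (GRCm38.p6) were held for Ins1 and Iapp, 2 of the 3 genes. The 250 bases before the RefSeq start are printed, with CATCTG (the core of the motif above) and TAAT in capitals on either strand, so that a TAAT on the minus strand reads ATTA.

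Ins1 (chr19:52264047-52264296, plus strand): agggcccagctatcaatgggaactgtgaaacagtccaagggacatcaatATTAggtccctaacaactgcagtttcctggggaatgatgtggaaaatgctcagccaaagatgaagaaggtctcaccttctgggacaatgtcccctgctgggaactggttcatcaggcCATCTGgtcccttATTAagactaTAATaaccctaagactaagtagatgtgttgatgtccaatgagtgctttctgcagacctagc
Iapp (chr6:142298175-142298424, plus strand): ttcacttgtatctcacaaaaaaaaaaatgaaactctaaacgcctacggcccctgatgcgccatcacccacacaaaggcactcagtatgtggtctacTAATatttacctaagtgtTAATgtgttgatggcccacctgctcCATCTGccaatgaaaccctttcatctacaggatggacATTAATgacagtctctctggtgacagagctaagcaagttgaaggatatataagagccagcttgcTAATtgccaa

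Both windows held CATCTG once, on the plus strand, at base -84 of Ins1 and base -111 of Iapp, counted back from the start. The full GCCATCTG, which contains it, was found in the Ins1 window only. TAAT occurred 3 times in the Ins1 window and 5 times in the Iapp window, where a plus-strand and a minus-strand match overlap. Of 32851 windows of the same length in the table, 14.4% held CATCTG, 1.11% GCCATCTG and 54.9% TAAT; 17.3% held TAAT at least 3 times and 5.54% at least 5 times. These are letter matches in a fixed window, not measured binding.

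UMIs (unique molecular identifiers, 1 per captured molecule) totalled 81872519 in the wild-type library and 134950186 in the Malat1-null library. Barcodes of at least 12000 UMIs numbered 1279 and 2185, and 0 of these cell barcodes were shared between the libraries. A beta barcode was one in which Ins1 and Ins2 made up at least 20% of UMIs. There were 913 in wild type (71.4% of cell barcodes, 68.8% to 73.8%) and 1899 in Malat1-null (86.9%, 85.4% to 88.3%). The label beta cell was checked against 8 beta-cell genes other than insulin: at least 3 were detected in 912 and 1896 of these barcodes, and also in 32 of the 366 and 53 of the 286 other cell barcodes. Most of the remaining 366 and 286 barcodes were classed by hormone RNA or marker genes as other islet, pancreatic and immune cells. In each library 8 stayed unclassed. Malat1 had 575920 UMIs over the wild-type beta barcodes (0.958% of their UMIs) and 38 over those of Malat1-null. No doublet caller was run, and 19 and 141 beta barcodes held glucagon, somatostatin, pancreatic polypeptide and peptide YY RNA at 1% of UMIs or more in sum. Each genotype has 1 library, so differences between genotypes have no test and no spread between animals, genotype and library cannot be told apart, and the 95% intervals given cover counting error only. UMI counts of a 3′ assay were not divided by transcript length.

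In beta barcodes the 3 genes took up most of the UMIs. Ins2 was the most abundant, at a median of 34.9% of a barcode's UMIs in wild type (lowest 10.9%, highest 64.2%) and 40.1% in Malat1-null (14.4% to 63.5%). Ins1 followed, with medians of 15.6% (0.0378% to 28.4%) and 17.7% (0.239% to 33.8%). Iapp had medians of 5.88% (0.784% to 16.3%) and 4.79% (0.153% to 12.9%). In molecules, the median wild-type beta barcode held 9662 Ins1, 21555 Ins2 and 3588 Iapp UMIs, and the median Malat1-null beta barcode 8841, 20315 and 2434. The ranges of the 3 genes overlapped widely between genotypes. The order of the medians, Ins2 above Ins1 above Iapp, was the same in both libraries. Insulin as a sum, which the choice of beta barcodes used, had medians of 50.9% and 57.9%.

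The limit of 20% fell where few barcodes lay. Insulin stood between 15% and 20% of UMIs in 3 barcodes of each library, and between 20% and 25% in 5 wild-type and 8 Malat1-null barcodes. The 3 wild-type barcodes just below the limit had a median Iapp of 5.67% and the 5 just above 4.71%. In Malat1-null the corresponding medians were 4.33% and 4.27%. Iapp, which the choice did not use, was thus near the level of beta barcodes on both sides of it. Barcodes just below the limit include some classed otherwise by hormones or markers (below). In wild type these were PP and PYY (18.3% insulin) and ductal (19.1%). In Malat1-null they were somatostatin (17.0%), acinar (17.7%) and unclassed (19.1%). Somatostatin barcodes carried Iapp at the beta level with little insulin, so Iapp does not show that barcodes below the limit were beta cells.

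Insulin molecules were divided between the genes in the same proportion in both genotypes. The median Ins1 share of Ins1 plus Ins2 UMIs was 30.7% in the wild-type library and also 30.7% in Malat1-null. The share over all beta barcodes summed was 30.6% (95% interval 30.6% to 30.7%) and 30.5% (30.5% to 30.5%). The median barcode thus had 0.442 Ins1 molecules per Ins2 molecule in each library. The proportion also moved little with depth: in 5 depth ranges from 20000 UMIs upward, the median ran from 27.1% to 31.1% in wild type and from 30.3% to 31.0% in Malat1-null. The lowest of these medians came from the 110 wild-type barcodes of 20000 to 40000 UMIs. Under 20000 UMIs the median was 33.6% on 4 wild-type barcodes and 30.6% on 52 Malat1-null barcodes.

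Around that common centre the cells of the wild-type library were spread more widely. The Ins1 share lay between 18.4% (5th percentile) and 39.3% (95th) in wild type, and between 22.8% and 36.7% in Malat1-null. Its SD over barcodes was 6.66 percentage points in wild type and 4.49 in Malat1-null. Counting alone would give 0.276 and 0.289 points at these depths, which left 6.65 and 4.49 points of spread between barcodes beyond counting. A share of 25% to 35% was found in 57.1% of the beta barcodes of wild type and in 79.3% of those of Malat1-null. The excess in wild type lay on both sides: 19.7% against 9.37% of barcodes fell below 25%, and 23.2% against 11.3% rose above 35%. With every barcode thinned to 12000 UMIs the SD beyond counting was 6.61 and 4.50 points. Whether the difference in spread goes with the genotype or with the library cannot be told apart.

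**Figure D1:**
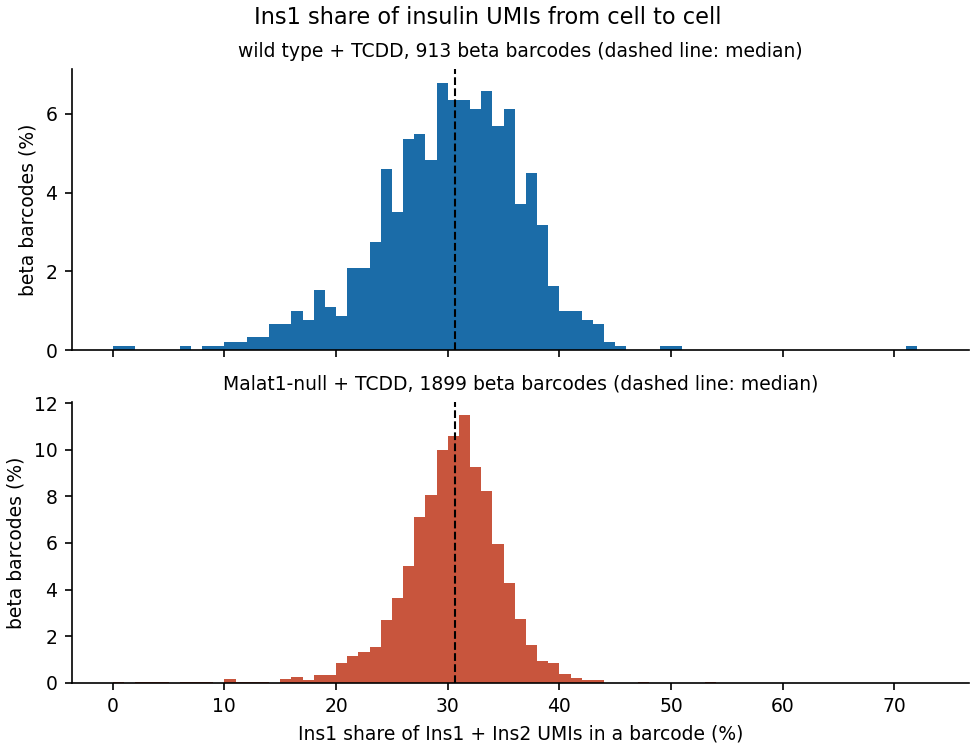
Ins1 share of Ins1 plus Ins2 UMIs (x axis, percent) in each beta barcode of the wild-type library (upper panel, 913 barcodes) and the Malat1-null library (lower panel, 1899 barcodes), both with TCDD, as the percent of beta barcodes per 1-point bin (y axis, a different scale in each panel). Dashed lines mark the medians, 30.7% in both. The wild-type distribution is broader on both sides.

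A few beta barcodes used almost only Ins2, with an Ins1 share below 5% in 2 wild-type and 4 Malat1-null barcodes. None used almost only Ins1. The lowest Ins1 share in wild type was 0.0949%, from 14 Ins1 and 14737 Ins2 UMIs in a barcode of 37052 UMIs with 2380 Iapp UMIs. The highest was 71.3%, from 7988 Ins1 and 3215 Ins2 UMIs. In Malat1-null the extremes were 0.889% (84 Ins1 and 9367 Ins2 UMIs) and 53.8% (12461 and 10710 UMIs). A share below 15% was seen in 21 of 913 wild-type barcodes (2.30%, 1.43% to 3.49%) and in 13 of 1899 Malat1-null barcodes (0.685%, 0.365% to 1.17%). A share above 50% was seen in 2 and 1. The Ins1-poor barcodes of wild type were not poor in Ins2: its median there was 34.0% of UMIs, beside 34.9% in the barcodes of 15% to 50% Ins1, while in Malat1-null it was 28.2% beside 40.1%. At least 3 of the 8 other beta-cell genes were detected in all 21 and all 13. They were shallower, with median UMIs of 37170 against 63578 and 23940 against 50320, and 1 and 5 of them held another hormone at 1% or more. The part of depth and of other cells in these barcodes was not tested.

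Low Ins1 shares were also the rule among the wild-type barcodes with some insulin but less than 20%. In the 12 wild-type barcodes with 1% to 20% insulin the median Ins1 share was 11.6% (0.312% to 35.2%), and 8 lay below 15%. In the 36 such Malat1-null barcodes the median was 25.5% (7.63% to 40.5%), and 3 lay below 15%. Another hormone at 1% or more was present in 6 of the 12 and in 21 of the 36.

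Ins1 and Ins2 rose and fell together across beta barcodes, and Iapp followed them less closely. Each gene was taken per UMI of all other genes (leaving out Ins1, Ins2, Iapp and Malat1), so that one member does not lower another through the total; the genes still share that denominator. Spearman's rho of Ins1 with Ins2 was 0.76 over 913 wild-type barcodes and 0.86 over 1899 Malat1-null barcodes. Ins1 with Iapp gave 0.47 and 0.57, and Ins2 with Iapp 0.29 and 0.60. In wild type, then, Iapp ran more with Ins1 than with Ins2, and in Malat1-null about equally with both. Accordingly, rho of the Ins1 share with Iapp was 0.42 in wild type and 0.12 in Malat1-null. The insulin genes per other UMI were higher in deeper barcodes (rho of their sum with UMIs 0.45 and 0.22) and lower in barcodes with more mitochondrial RNA (-0.36 and -0.37).

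Amylin was less abundant relative to insulin in the Malat1-null library. For every 100 insulin UMIs, the median wild-type barcode held 11.5 Iapp UMIs and the median Malat1-null barcode 8.39. Iapp was also more variable in wild type, with a coefficient of variation of 39.4% of its share of UMIs against 26.7%, and a 5th to 95th percentile range of 2.45% to 10.0% against 2.70% to 6.80%. The ranges between the quartiles overlapped, at 4.25% to 7.61% in wild type and 3.99% to 5.57% in Malat1-null. In every one of 6 depth ranges the median Iapp per 100 insulin UMIs was higher in wild type, at 10.3 to 12.7 against 8.12 to 8.93, so the order was the same at matched depth. The median share of Iapp itself was 4.71% at 20000 to 40000 UMIs and 6.34% at 80000 to 120000 UMIs in wild type, and 4.44% and 5.0% in Malat1-null. The outer ranges did not continue this in wild type, with 6.10% on the 4 barcodes under 20000 UMIs and 5.92% on the 32 above 120000, while Malat1-null had 4.12% and 5.25% there. Median insulin was 41.7% and 55.4% over the same inner ranges in wild type, and 54.9% and 58.8% in Malat1-null.

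**Figure D2:**
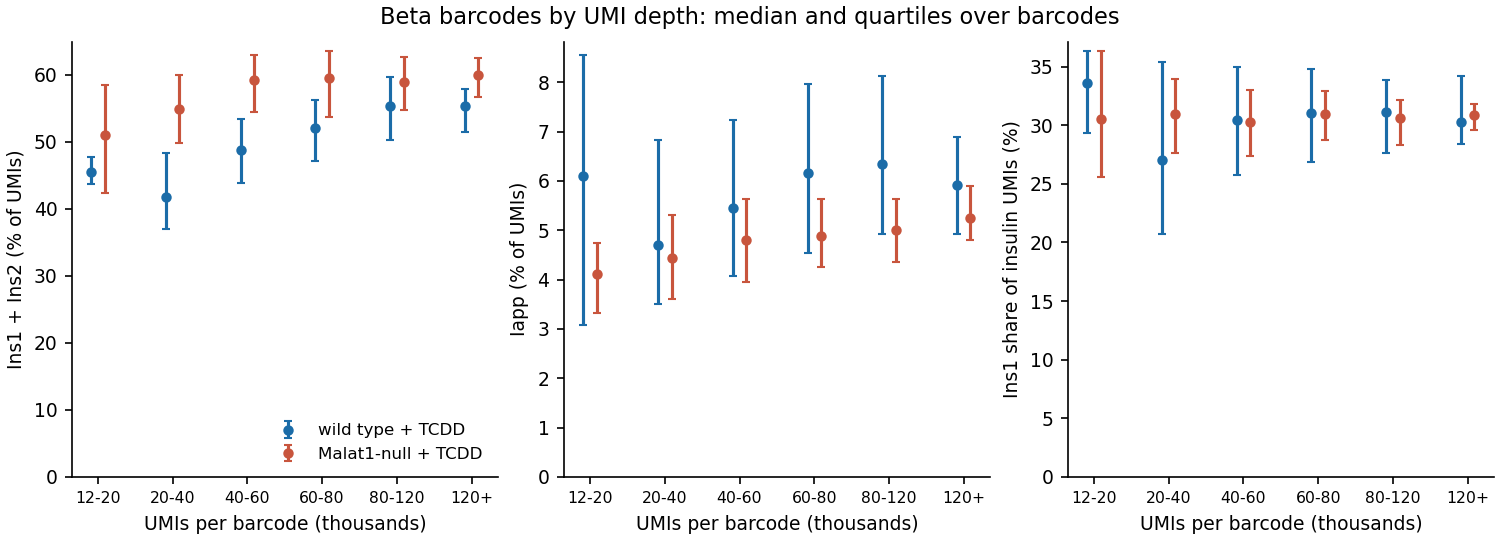
Medians (points) and quartiles (bars) over beta barcodes of the insulin share of UMIs (left), the Iapp share of UMIs (middle) and the Ins1 share of insulin UMIs (right), all in percent, by UMIs per barcode (x axis), for the wild-type (blue) and Malat1-null (red) libraries with TCDD. Insulin is higher in Malat1-null in each depth range and Iapp is higher in wild type in each, while the Ins1 shares overlap; the first wild-type point rests on 4 barcodes.

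Summed over beta barcodes and scaled by TMM (a factor that sets most genes equal), none of the 3 genes was 1.5-fold apart between genotypes. CPM, counts scaled to a common library total, is used for these sums. Among all 1665 genes at 50 CPM or more in a library, 3.84% were at least 1.5-fold apart either way. Ins1 was 149716 CPM in wild type and 184858 in Malat1-null, a ratio of 1.23 (1.23 to 1.24). Ins2 was 338827 and 421663, a ratio of 1.24 (1.24 to 1.25). Iapp was 57789 and 51585, a ratio of 0.893 (0.892 to 0.894). Ins1 and Ins2 were thus higher in Malat1-null by almost the same factor, and Iapp lower. The size depended on the scaling. Scaled to all UMIs, which moved the median log2 ratio of all genes from 0.02 to -0.15, the ratios were 1.11, 1.12 and 0.802, with the same directions.

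The genes that regulate, fold, process, store and degrade insulin and amylin were taken as a list of 52, of which 34 reached the minimum level. In Malat1-null 2 of these were higher by 1.5-fold or more, beside 1.86% of all 1665 genes, and 2 were lower, beside 1.98%. The median log2 ratio of the list was 0.12, beside 0.02 for all genes. The 2 higher genes were Mafa, a transcription factor that binds the insulin promoter (143 and 280 CPM, ratio 1.96, 1.92 to 2.01), and Slc30a8, the zinc transporter of insulin granules (124 and 200, ratio 1.61, 1.57 to 1.65). The 2 lower genes were Chgb, a granule matrix protein (1346 and 727, 1.85-fold lower, 1.83 to 1.87), and Ero1l, an oxidase that supports disulphide formation (61.9 and 35.4, 1.75-fold lower, 1.67 to 1.83). The calls depended on the scaling: scaled to all UMIs, 1 gene of the list was higher and 3 were lower, beside 16 higher and 67 lower of 1685 genes in place of 31 and 33 of 1665 with TMM. Slc30a8 then had a ratio of 1.45, under the fold, and Pam was 1.57-fold lower, past it, while Mafa, Chgb and Ero1l stayed past it. With no replicate library these are differences between 2 libraries.

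Among the transcription factors, 7 of 16 reached the minimum level and Mafa alone passed the fold. Neurod1, which binds the insulin promoter motif, had 220 and 245 CPM (ratio 1.11), Nkx6-1, a beta-cell identity factor, a ratio of 1.05, and Isl1, a factor of all islet endocrine cells, a ratio of 0.995. Pdx1, the main activator of the insulin genes, stayed just under the minimum level at 38.1 and 49.5 CPM. Of the RNA-binding proteins, Ptbp1, which is known to bind and stabilise insulin mRNA, had a ratio of 1.11 (55.1 and 61.4). All 10 genes of folding and signal-peptide handling reached it, and 9 stayed within 1.5-fold.

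With TMM all 6 processing genes stayed within 1.5-fold; scaled to all UMIs, Pam did not. The convertases had ratios of 1.07 (Pcsk1, 116 and 124 CPM) and 1.34 (Pcsk2, 1350 and 1810), and the carboxypeptidase Cpe 1.14 (818 and 933). Pam, the enzyme that amidates amylin, was 1.41-fold lower (431 and 306), the same direction as Iapp. The degradation and receptor genes were all under the minimum level. Calcr, the calcitonin receptor that forms amylin receptors with the Ramp proteins, had 0 UMIs in the beta barcodes of both libraries, and Ide, the insulin-degrading enzyme, had 35.7 and 16.0 CPM.

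The genes most like each pattern over beta barcodes were ranked by the smaller of the 2 libraries' rho among 2157 genes with a mean of at least 2 UMIs per beta barcode in each library. These correlations are a description over barcodes that share a library and differ in depth. Gene values, insulin and Iapp were each taken per other UMI and so share a denominator, which the Ins1 to Ins2 ratio lacks. Most like the Ins1 to Ins2 ratio were Acly, the enzyme that makes cytosolic acetyl-CoA for lipid synthesis (rho 0.50 in wild type and 0.32 in Malat1-null), the calcium pump gene Atp2a3 (0.36 and 0.31), the sodium channel subunit gene Scnn1b (0.34 and 0.30), Ucp2, a mitochondrial carrier (0.45 and 0.29), and the imprinted gene Peg3 (0.35 and 0.27). At the other end stood Ndufb9, a subunit of respiratory complex I (-0.27 and -0.26), and the ribosomal protein genes Rpl37, Rpl24, Rpl35a and Rps15a (-0.21 to -0.27). Of all 2157 genes, 0.927% reached 0.2 in both libraries and 0.51% reached -0.2. Acly itself was lower in deeper barcodes (rho with UMIs -0.19 in both) and higher with mitochondrial RNA (0.35 and 0.22).

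The genes most like total insulin were Ssr4, a subunit of the translocon-associated complex (0.43 and 0.43), Scg5, the chaperone of Pcsk2 (0.37 and 0.45), Pcsk1n, an inhibitor of Pcsk1 (0.33 and 0.38), the granin Scg2 (0.31 and 0.32) and the membrane protein gene Tmem59 (0.30 and 0.32). At the low end were the nucleolin gene Ncl (-0.25 and -0.20), the mitochondrial protease gene Lonp1, Nfe2l1, Hspa9 and Zfhx3, where the smaller rho of each gene ran from -0.20 to -0.13. A rank correlation of at least 0.2 in both libraries was reached by 1.11% of genes, and one of -0.2 or below by 0%.

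Most like Iapp were Atp5l, a subunit of ATP synthase (0.41 and 0.42), Ppia, the cyclophilin A gene (0.46 and 0.37), Ssr4 again (0.42 and 0.33), and the complex I subunit genes Ndufb11 (0.37 and 0.32) and Ndufa1 (0.45 and 0.32). Ssr4 rose with depth as well (rho with UMIs 0.38 and 0.37), and the part of depth was not tested. At the low end were Ankrd11 (-0.25 and -0.25), the mitochondrial chaperone gene Hspa9 (-0.42 and -0.24), the calcium pump gene Atp2a2 (-0.25 and -0.22), the tRNA synthetase gene Eprs (-0.29 and -0.21) and Agap1 (-0.24 and -0.20). For Iapp 5.15% of genes reached 0.2 in both libraries, more than for the other patterns, and 0.185% reached -0.2. The part of the shared denominator in these shares was not tested. Of the 34 genes of the list above, Pcsk2 had a rho with Iapp of 0.43 and 0.23 and with the Ins1 to Ins2 ratio of 0.37 and 0.20. Mafa had 0.09 and 0.05 with Iapp and 0.25 and 0.05 with the ratio.

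Outside beta barcodes Iapp differed widely between classes, while insulin as a sum lay under the limit for beta barcodes by definition. Other barcodes were classed as glucagon, somatostatin or PP and PYY barcodes where that hormone's RNA reached 5% of UMIs, and otherwise by marker genes. By medians, Iapp was at a beta-barcode level on somatostatin barcodes. Insulin as a sum could not be, because every barcode at or above that limit was taken as beta. The values below show only how far under it insulin lay. On the 11 wild-type somatostatin barcodes the median was 5.94% Iapp (3.93% to 11.3%), 0.0320% Ins1 and 0.0801% Ins2. On the 21 Malat1-null somatostatin barcodes it was 5.86% Iapp (3.32% to 8.68%), 0.136% Ins1 and 0.453% Ins2. Insulin stayed under 1% of UMIs on all 11 and on 18 of the 21, and in Malat1-null it reached 17.0%. The delta-cell genes marked these barcodes, with Hhex at 273 and 207 CPM and Rbp4 at 7822 and 7968, against 0.715 and 2.23 and 15.9 and 96.8 in beta barcodes. The beta-cell gene Mafa had 0 and 1 UMIs over all of them, and Slc2a2 1 and 0. Of the 8 beta-cell genes, Pdx1, a factor that delta cells share, was higher than in beta barcodes (79.0 and 62.8 against 40.2 and 46.9 CPM). Every other was lower in both libraries. CPM in this paragraph was scaled to all UMIs of the class, without TMM. The hormone genes Ppy and Pyy were also high on the somatostatin barcodes, at 21338 and 16068 CPM and at 60258 and 50998 CPM. In beta barcodes they had 358 and 2213 CPM and 405 and 1679 CPM.

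Iapp on PP and PYY barcodes ranged from background to the beta-barcode level. The median was 0.209% in wild type (44 barcodes, 0% to 9.61%) and 0.475% in Malat1-null (54 barcodes, 0.0393% to 9.57%). Among those with insulin under 1%, Iapp reached 1% of UMIs in 12 of 40 and in 18 of 49 barcodes. Somatostatin RNA stood at 1% of UMIs or more in 11 of these 12 and in all 18 of these 18, but in 0 of the 28 and 2 of the 31 with less Iapp. On glucagon barcodes with insulin under 1%, somatostatin RNA was at that level in 1 of 3 and 6 of 12 with Iapp at 1% or more and in 0 of 29 and 0 of 43 with less. These limits were set after the values had been seen, and whether such barcodes hold 1 cell or several was not tested.

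Glucagon barcodes had intermediate Iapp, with a median of 0.0735% in wild type (34 barcodes, 0.00732% to 3.01%) and 0.389% in Malat1-null (66 barcodes, 0.0554% to 4.96%). With insulin under 1%, Iapp exceeded insulin in 15 of 32 wild-type and 20 of 55 Malat1-null glucagon barcodes, in 23 of 40 and 26 of 49 PP and PYY barcodes, and in all 11 and all 18 somatostatin barcodes. It did so in 0 of 263 and 0 of 122 barcodes of non-endocrine cells, which allows a share of up to 1.14% and 2.46%. Over all non-endocrine barcodes, whatever their insulin, it did so in 1 of 269 and 1 of 137.

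Barcodes of non-endocrine cells (endothelial, ductal, acinar, mesenchymal and immune markers), which are not known to make these hormones, were taken as a background level. Whether free RNA alone brings that level was not tested. With insulin under 1%, the median was 0.0722% insulin and 0.00897% Iapp on 263 wild-type barcodes, and 0.390% and 0.0425% on 122 Malat1-null barcodes. The wild-type values lay below the Malat1-null ones for all 3 genes. Iapp per 100 insulin UMIs was 13.0 (12.1 to 13.9) and 10.4 (9.83 to 11.02) there, near the 11.8 and 8.51 of the summed beta barcodes. On somatostatin barcodes with insulin under 1% it was 6462 (5779 to 7248) and 1183 (1128 to 1242), on PP and PYY barcodes 1132 and 495, and on glucagon barcodes 267 and 197. Median insulin on these hormone barcodes was 0.0883% to 0.115% in wild type, above the non-endocrine 0.0722%. In Malat1-null it was 0.348% to 0.545%, on both sides of the non-endocrine 0.390%. Depths differed, with median UMIs of 27316 and 18059 on somatostatin and 25790 and 21718 on non-endocrine barcodes. They were 32566 and 28949 on PP and PYY barcodes and 28626 and 16828 on glucagon barcodes. The part of depth was not tested, and no insulin expression is read from these medians. With insulin under 1%, summed Iapp per insulin UMI on the hormone barcodes was many-fold higher than on non-endocrine barcodes. In 6 wild-type and 15 Malat1-null non-endocrine barcodes insulin was at 1% or more, up to 19.1% and 17.7%. With these included, Iapp per 100 insulin UMIs on non-endocrine barcodes was 41.2 over 269 barcodes and 21.2 over 137, no longer near the beta values. The 1% limit selects on insulin, the denominator of this ratio. Without it the ratio was lower on hormone barcodes too, at 266 on Malat1-null somatostatin barcodes. It was 161 and 328 on PP and PYY barcodes and 212 and 132 on glucagon barcodes, still above the non-endocrine values.

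**Figure D3:**
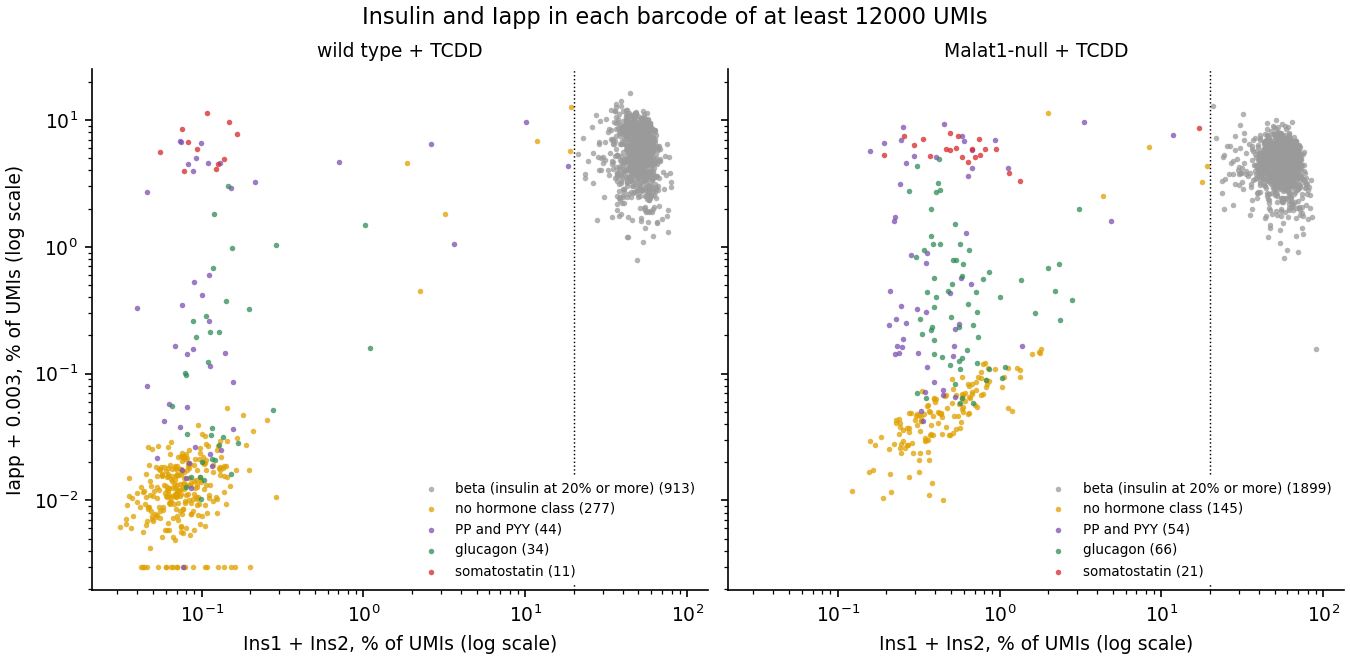
Iapp plus 0.003 (y axis) against Ins1 plus Ins2 (x axis), both as percent of UMIs on log scales, for each barcode of at least 12000 UMIs in the wild-type (left) and Malat1-null (right) libraries with TCDD. The dotted line marks 20% insulin. Somatostatin barcodes (red) lie at the Iapp level of beta barcodes (grey), most of them with insulin near that of barcodes without a hormone class (yellow). In Malat1-null their insulin reaches 17.0%. PP and PYY (purple) and glucagon barcodes (green) spread between.

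**Figure D4:**
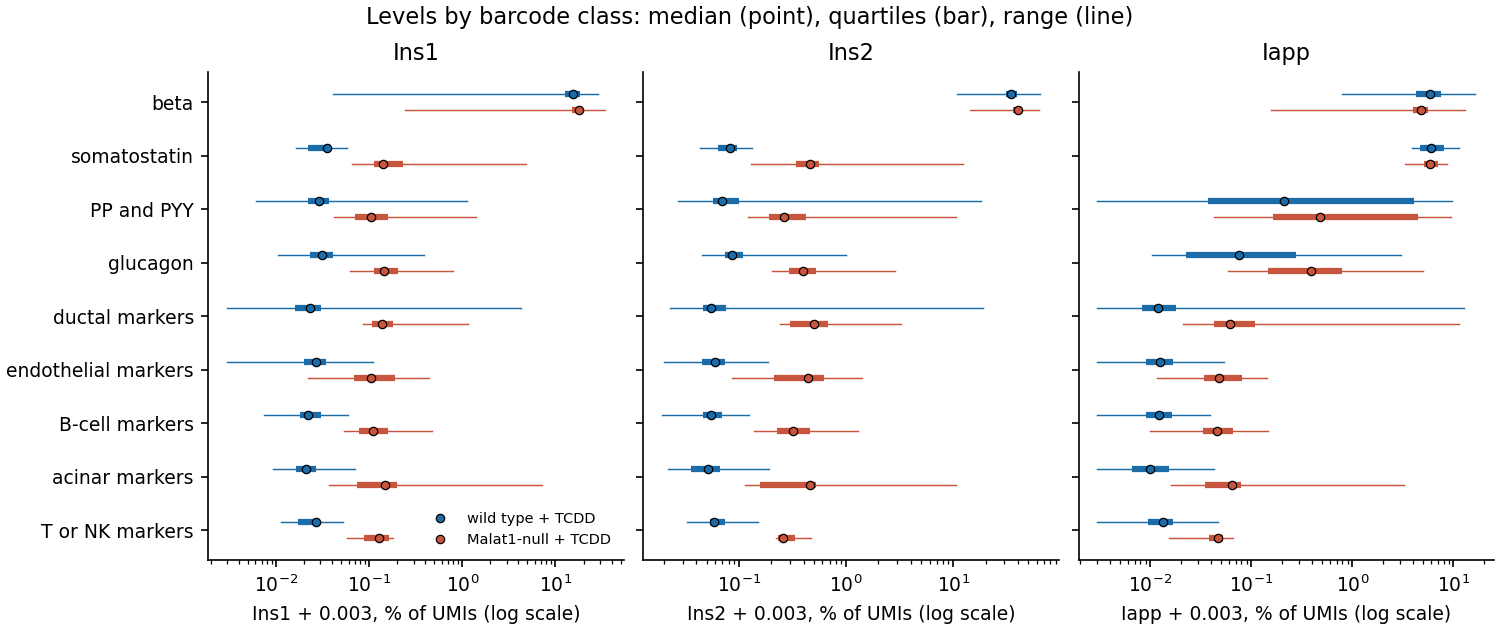
Ins1, Ins2 and Iapp plus 0.003, as percent of UMIs on log scales (x axes), by class of barcode (y axis) in the wild-type (blue) and Malat1-null (red) libraries with TCDD; points are medians, thick bars quartiles and thin lines the range over barcodes. By medians, Iapp reaches the beta level on somatostatin barcodes and in no other class outside beta. Insulin as a sum could not, because every barcode at or above the insulin limit for beta barcodes was taken as beta. Every class outside beta has higher Ins1 and Ins2 medians in Malat1-null. The ranges of some other classes overlap beta, with Ins2 up to 18.8% and Iapp up to 12.7% on wild-type ductal barcodes.

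Barcodes of 10 to fewer than 500 UMIs, mostly droplets without a cell, carried far more of these RNAs in the Malat1-null library. Insulin made up 19.3% of the UMIs of 70454 wild-type barcodes in this range and 57.9% of those of 96480 Malat1-null barcodes. Iapp made up 1.79% and 4.68%. Summed over beta barcodes, insulin was 57.5% and Iapp 4.89% in Malat1-null, close to these shares, while the 51.6% and 6.10% of wild type lay well above them. The closeness did not hold at every depth: on the 26176 Malat1-null barcodes of 10 to fewer than 50 UMIs insulin was 33.8% and Iapp 2.73%, and from 100 to fewer than 500 UMIs 60.2% and 4.89%. At 500 to fewer than 2000 UMIs insulin was 6.46% in wild type and 48.6% in Malat1-null. The order matches that on non-endocrine cells, where insulin was higher in Malat1-null too.

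The Ins1 share of this low-UMI insulin was below that of beta barcodes in both libraries, at 28.3% (28.2% to 28.4%) against 30.6% in wild type and 27.0% (27.0% to 27.0%) against 30.5% in Malat1-null. On non-endocrine barcodes with insulin under 1% it was 28.3% (27.2% to 29.4%) and 24.8% (24.1% to 25.6%). In both of these sets insulin RNA was thus poorer in Ins1 than in beta barcodes, by a margin larger than the counting error. The order depended on that limit: over all non-endocrine barcodes the Ins1 share was 18.6% (18.1% to 19.1%) in wild type and 31.4% (30.8% to 31.9%) in Malat1-null, the latter above beta barcodes. Nor did it extend to all depths: wild-type barcodes between the low range and the cells, at 2000 to fewer than 5000 UMIs, had an Ins1 share of 31.4%.

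Nearly all cell barcodes of each library reappeared among the low-UMI barcodes of the other. Of the 2185 Malat1-null cell barcodes, 2126 (97.3%) appeared in that low range in the wild-type matrix, and 1272 of the 1279 wild-type cell barcodes (99.5%) did in the Malat1-null matrix, although such barcodes are 1.04% and 1.42% of those listed. On the 1272, Malat1 was 0.600% of UMIs, against 0.0333% on the other low-UMI barcodes of Malat1-null. Without these barcodes insulin was 17.1% in wild type and 57.8% in Malat1-null, Iapp 1.75% and 4.70%, and the Ins1 share 28.5% and 27.0%.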

How the data were processed

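The 2 TCDD libraries (wild type and Malat1-null, 1 each) were measured with a 10x 3′ kit, per the labels' protocols. The deposited matrices hold unfiltered UMI counts per gene and barcode. They were made by the authors with Cell Ranger 4 per the file headers, while the submitters' processing notes name Cell Ranger 2.1.0 and genome mm10. The 2 DMSO samples were not analysed here.

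From the counts, barcodes of at least 12000 UMIs were taken as cells and those with at least 20% Ins1 plus Ins2 as beta barcodes. Shares have exact binomial intervals and ratios exact conditional intervals at 95%. Medians and correlations are over barcodes, which are no replicates. UMIs summed over beta barcodes were scaled with TMM (edgeR 4.0.16, R 4.3.3). A gene was counted as apart at 1.5-fold, with at least 50 CPM in a library and 50 UMIs over both. Other barcodes were classed by a hormone at 5% of UMIs or by marker lists. Named genes are the members, list genes past the fold, 11 preset list genes (Pdx1 to Slc30a8) and the 5 highest and 5 lowest correlations with each pattern; Chgb and Ero1l passed the fold, and Ide and Calcr were named after their values were seen. Scripts were tested on simulated data.

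The members and lists were chosen with earlier results of these data known. The limits on the Ins1 share (5%, 15%, 25%, 35%, 50%), the 5% hormone classes and the 1% insulin limit were set after values had been seen. Gene coordinates and coding sequences are from GENCODE M21, in which 32158 of the 32285 gene identifiers were found, and upstream sequences from RefSeq. Alternatives varied the UMI and insulin minimums, the definition of beta barcodes, the depth, the scaling, the level filter and the low-UMI range; leaving out the other library's cell barcodes was added after seeing the data.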

Additional observations from a re-analysis of the deposited data

Results flagged for a closer look

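Malat1 made up 0.600% of UMIs on the Malat1-null barcodes of 10 to fewer than 500 UMIs that are cell barcodes of the wild-type library, a signal in barcodes outside the beta-cell comparison and above the 0.0333% on the other barcodes of that range. In counts, the 1272 flagged barcodes held 863 Malat1 UMIs and the other barcodes of that range 3535. The Malat1-null beta barcodes held 38 Malat1 UMIs in all. Ins1 and Ins2 together were 66.1% of UMIs on those 1272 barcodes, and Iapp was 3.45%.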

How the results depend on the processing

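The Ins1 share, its spread beyond counting and the Iapp median of beta barcodes moved by less than their own interval (for the spread, by under 10%) under each UMI minimum, insulin minimum, hormone, marker and thinning setting. As a share of UMIs other than insulin and Malat1, Iapp was 12.6% in wild type and 11.5% in Malat1-null. The ratios of Ins1, Ins2 and Iapp kept their directions in all settings run. They were 1.11, 1.12 and 0.802 per all UMIs, 1.22, 1.23 and 0.882 per other UMIs, 1.23, 1.24 and 0.889 at 5000 UMIs and 1.24, 1.25 and 0.896 at 20000 UMIs. Without barcodes holding another hormone they were 1.28, 1.29 and 0.914, with beta barcodes taken by other markers 1.26, 1.27 and 0.904, and Ins1 was 1.24 at 10% insulin. Of the 52-gene list, 1 gene was higher and 3 lower per all UMIs, beside 16 and 67 of 1685 genes (31 and 33 of 1665 with TMM). On barcodes of 10 to 99 UMIs, insulin was 20.8% and 49.01%, its Ins1 share 28.5% and 27.1%, and Iapp 1.99% and 3.89%. Without the other library's cell barcodes, insulin was 17.1% and 57.8%, the wild-type Ins1 share 28.5%, and Iapp 1.75% and 4.70%. With a 5000 UMI minimum, non-endocrine insulin medians were 0.102% and 0.644%. Apart from the changed denominators and barcodes, the cause was not tested.

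No paired analysis was possible because each group has 1 library and the result comes from no test. A single library per genotype limits every comparison between genotypes to a description of these libraries. The TCDD effect cannot be read here. Beta barcodes held enough insulin UMIs that counting error in the Ins1 share is small beside its spread, whereas low genes such as Pdx1 stay under the level limit. Doublets were not removed.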

Other observations

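Ribosomal protein genes mostly had negative correlations with the Ins1 to Ins2 ratio in the Malat1-null library. Of 77 such genes, 76 had a negative rho with the ratio over 1899 beta barcodes, beside 962 of all 2157 genes (44.6%), with a median of -0.16 beside 0.01. In wild type 47 of the 77 were negative over 913 beta barcodes, beside 906 of all genes (42.0%), with a median of -0.03 beside 0.03. The 77 include the 4 genes at the low end of the ranking that led to this look. Their median rho with UMIs per barcode was 0.18 in Malat1-null and 0.05 in wild type, and with mitochondrial RNA -0.25 and -0.04. The part of depth and mitochondrial RNA, and the difference between the libraries, was not tested.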
